A study of Arabidopsis thaliana with 12 samples.

Results

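The AUX/IAA genes encode the repressors of the auxin response, and 10 of them were described here across the 4 groups of an mRNA sequencing experiment on Arabidopsis rosettes. These were IAA1 (AT4G14560), IAA2 (AT3G23030), IAA3 (AT1G04240), IAA4 (AT5G43700), IAA5 (AT1G15580), IAA7 (AT3G23050), IAA14 (AT4G14550), IAA17 (AT1G04250), IAA19 (AT3G15540) and IAA29 (AT4G32280). They were taken by locus identifier from a list that was drawn up with earlier results of these data known, and they are 10 of the 37813 genes in the read count table. A further 19 AUX/IAA genes of the table were kept as a comparison list. All 10 were counted in every library and all 10 passed the filter on low counts, which kept the 20101 protein-coding genes that reached 5 reads in 3 or more samples.

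The study compared wild-type plants of the Col-0 gl1 line with the jac1 mutant (allele jac1-1), which was in the same Col-0 gl1 background, so that every plant carried gl1. Both genotypes were grown for 4 weeks in an 8 h photoperiod and were either left non-treated or harvested 30 min after 100 mJ cm-2 of UV-C. Each of the 4 groups had 3 biological replicates, every one a pool of whole rosettes. Both genotypes were represented by a single line, and JAC1 is known for its role in chloroplast movement.

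In the absence of auxin, AUX/IAA proteins bind to ARF transcription factors on auxin-responsive promoters and recruit TOPLESS co-repressors, which keeps those genes silent. Auxin joins an AUX/IAA protein to a TIR1/AFB receptor, the F-box subunit of an SCF ubiquitin ligase, through a short conserved stretch called the degron, and the repressor is then degraded. Many AUX/IAA genes are themselves rapidly induced by auxin, so that their transcripts are commonly read as a sign of auxin response, and some are also targets of the PIF factors that act downstream of phytochrome.

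The coding stretch around the degron is shown first. The 10 genes were chosen as AUX/IAA genes, and the degron is a conserved stretch of AUX/IAA proteins, so the shares below are no independent result. AUX/IAA genes with the core are also counted among all genes. A search of the longest annotated coding sequence of each gene for in-frame GGN TGG CCN CC (written in codons, with N any base), which spells the core of the degron, found it in 10 of the 10 genes, in 13 of the 19 other AUX/IAA genes and in 34 of 27444 genes with a coding sequence (0.124%). Each line gives 36 bases of the coding strand, 5′ to 3′, with the 12 bases of the core in capitals (RefSeq, build TAIR10.1). In the order printed, the windows lie at chr4:8361433-8361468 (plus strand), chr3:8181384-8181419 (minus), chr1:1129016-1129051 (minus), chr5:17550737-17550772 (plus), chr1:5366272-5366307 (minus), chr3:8195565-8195600 (plus), chr4:8349475-8349510 (minus), chr1:1136935-1136970 (plus), chr3:5264304-5264339 (plus) and chr4:15583939-15583974 (plus), and each lies within 1 exon.
IAA1: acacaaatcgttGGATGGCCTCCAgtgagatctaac
IAA2: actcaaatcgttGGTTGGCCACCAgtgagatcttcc
IAA3: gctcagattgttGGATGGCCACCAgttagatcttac
IAA4: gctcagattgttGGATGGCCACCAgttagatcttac
IAA5: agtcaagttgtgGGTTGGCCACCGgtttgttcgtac
IAA7: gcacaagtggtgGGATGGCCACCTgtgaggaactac
IAA14: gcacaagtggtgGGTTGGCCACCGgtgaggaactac
IAA17: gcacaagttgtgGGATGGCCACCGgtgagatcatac
IAA19: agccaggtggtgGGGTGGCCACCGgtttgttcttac
IAA29: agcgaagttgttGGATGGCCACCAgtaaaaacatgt
The IAA3 and IAA4 windows were identical over all 36 bases, and those of IAA7 and IAA14 shared 34 of 36. IAA29 had the least in common with other members, with 21 of 36 bases shared with IAA14. These sequences are a description of the genes and carry no measurement.

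Libraries of non-treated plants held 33999174 to 40445085 assigned reads and those of UV-C treated plants 20897905 to 27194762. The share of reads from chloroplast-encoded genes was 0.0172% to 0.0219% in the 6 non-treated libraries and 1.64% to 2.35% in the 6 UV-C libraries. Reads of the nuclear 18S rRNA gene AT3G41768 made up 0.00577% to 0.011% and 1.83% to 2.51%, and those of mitochondrial genes 0.0045% to 0.0074% and 0.414% to 0.56%, so that the composition of the libraries moved together with the treatment in all 12 samples and cannot be told apart from it in any UV-C comparison. The treated genotypes also differed in composition. Their 18S shares were 2.32% to 2.51% in wild type and 1.83% to 1.97% in jac1, without overlap. Their TMM scaling factors were 0.995 to 1.03 and 0.825 to 0.856, while chloroplast and mitochondrial shares overlapped. This difference cannot be told apart from genotype in the comparison of treated plants. JAC1 (AT1G75100), the mutated gene, was at 88.1 to 99.2 CPM (reads scaled to a common library size with TMM factors) in the wild type and at 135.2 to 161.2 CPM in jac1 without treatment, and at 128.3 to 152.4 and 168.3 to 181.3 CPM after UV-C, so that its transcript was not lower in jac1. How jac1-1 acts on the transcript is not given in the sources used here, and the level is therefore no check of the genotype labels. GL1 (AT3G27920) lay between 0.0726 and 0.54 CPM in all libraries.

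The 10 genes covered a wide range of expression. Levels between genes were compared as RPKM, in which reads are scaled by the length of the annotated exons and by the library size (TMM factors). In non-treated wild type IAA7 was the highest, at 72.0 ± 6.36 RPKM (SD, n = 3), followed by IAA2 at 53.8 ± 2.27 and IAA4 at 53.8 ± 5.67, which did not differ beyond their spread. IAA3 followed at 16.4 ± 0.911 RPKM, then IAA17 at 9.31 ± 1.01 and IAA1 at 8.64 ± 1.41, whose samples overlapped. IAA14 stood at 3.87 ± 0.241 RPKM, IAA19 at 2.25 ± 0.289 and IAA29 at 2.18 ± 1.12, the last pair overlapping, and IAA5 was the lowest at 0.689 ± 0.200.

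The same 3 genes led in every group, but the order among and below them changed after UV-C. In UV-C treated wild type IAA2 (72.0 ± 2.21 RPKM) stood above IAA7 (54.3 ± 8.55), IAA1 (16.5 ± 1.29) stood above IAA17 (5.17 ± 0.418) without overlap, and IAA19 (8.10 ± 0.202) lay between them. Non-treated jac1 had the order of the non-treated wild type, with IAA2 (72.7 ± 4.39) and IAA4 (67.3 ± 10.5), and IAA19 (2.04 ± 0.477) and IAA29 (1.74 ± 0.259), as the overlapping neighbours. In UV-C treated jac1 IAA14 (9.95 ± 0.937 RPKM), IAA29 (9.58 ± 1.95), IAA19 (9.46 ± 1.13) and IAA17 (7.96 ± 1.07) formed a run of neighbours with overlapping samples, and IAA5 (1.89 ± 0.351) remained below all others.

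**Figure D1:**
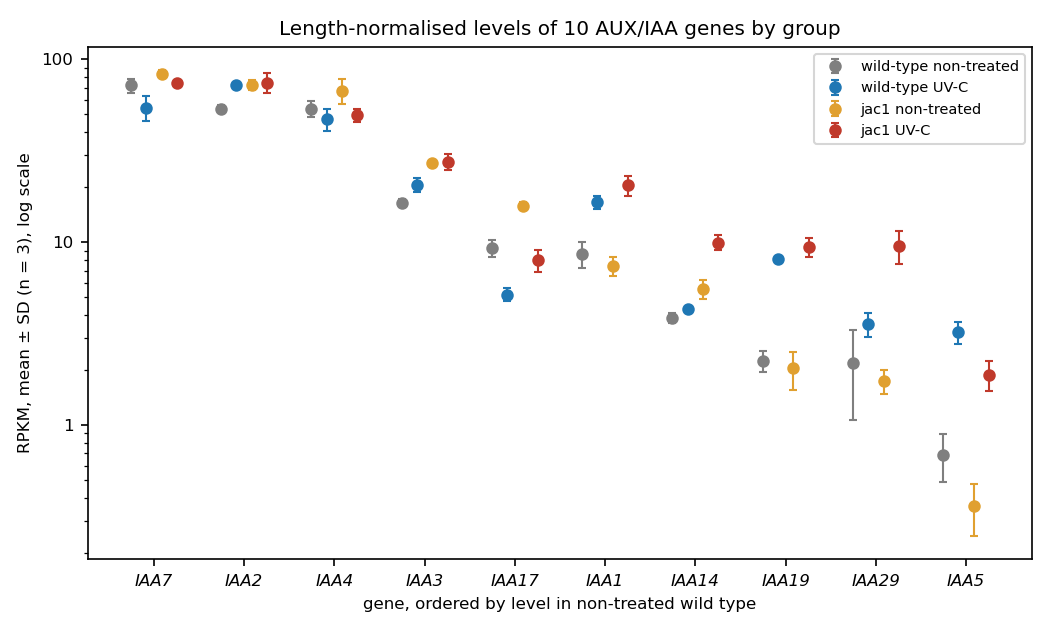
Length-normalised level (RPKM on a log axis, mean ± SD, n = 3) of the 10 AUX/IAA genes, ordered on the horizontal axis by their level in non-treated wild type, with 1 colour per group. IAA7, IAA2 and IAA4 lie at the top in each group, and IAA19, IAA29 and IAA5 lie far higher in the UV-C groups than in the non-treated groups on this log scale, except IAA29 in wild type (2.18 and 3.57 RPKM).

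The question of the UV-C comparison in wild type was which genes changed 30 min after irradiation. DEGs were taken at a false discovery rate (FDR) under 0.01 and an absolute log2 fold change (FC) over 1. The p-values come from the quasi-likelihood F-test of edgeR and were adjusted by Benjamini-Hochberg across the 20101 genes. Of the 10 AUX/IAA genes 2 were DEGs, IAA5 and IAA19, both up-regulated, against 9.27% of all genes tested (7.01% higher and 2.26% lower). The median log2 FC of the 10 genes was 0.38, and that of all genes tested 0.00.

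IAA5, an early auxin-induced gene and the least expressed of the 10, was at 0.369, 0.568 and 0.678 CPM in the 3 non-treated wild-type samples and at 2.83, 2.13 and 2.59 CPM after UV-C. Every treated sample lay above every non-treated one, and the log2 FC was 2.23 ± 0.26 (SE; edgeR adjusted p = 1.27e-05). IAA19, which acts in hypocotyl growth and tropic bending, was at 1.96, 2.53 and 2.32 CPM in non-treated wild type and at 8.14, 8.00 and 8.40 CPM after UV-C. Its 3 treated samples were tightly grouped at more than 3-fold the non-treated level, with a fitted fold of 3.61 and a log2 FC of 1.85 ± 0.16 (edgeR adjusted p = 4.68e-07).

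Of the 10 genes, 7 had an adjusted p under 0.01 whatever their fold, a share to be read against 34.7% of all genes at that threshold. In addition to the DEGs these were IAA1, IAA2 and IAA3, which were higher after UV-C, and IAA7 and IAA17, which were lower. IAA1, another early auxin gene, rose from 6.89, 8.09 and 9.54 CPM to 15.3, 14.6 and 17 CPM (log2 FC 0.94 ± 0.13, edgeR adjusted p = 4.63e-05), just under the fold threshold. IAA17, known from the auxin-resistant axr3 mutants, fell from 10.7, 12.9 and 13.2 CPM to 6.70, 6.31 and 7.40 CPM, which was a decrease in every treated sample (log2 FC -0.85 ± 0.11, edgeR adjusted p = 3.14e-05).

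IAA2, among the most abundant of the 10, rose by a log2 FC of 0.42 ± 0.08 (edgeR adjusted p = 0.000655) and IAA3, whose dominant shy2 alleles alter light and root growth responses, by 0.33 ± 0.08 (edgeR adjusted p = 0.00407). IAA7, known from the auxin-resistant axr2 mutant, fell from 132.9, 151.1 and 128.0 CPM to 85.2, 116.4 and 109.0 CPM, with a log2 FC of -0.41 ± 0.10 (edgeR adjusted p = 0.0032). IAA4, IAA14 and IAA29 did not pass the test in wild type, with log2 FC of -0.20, 0.15 and 0.69.

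In jac1 the same UV-C comparison gave 4 DEGs among the 10 genes, IAA1, IAA5, IAA19 and IAA29, all up-regulated, whereas 13.7% of all genes tested were DEGs (8.96% higher and 4.75% lower). Their median log2 FC was 0.44 and that of all genes 0.05. With an adjusted p under 0.01 at any fold there were 7 of 10, and 48.4% of all genes.

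IAA29, a gene known as a PIF target that is induced by shade and warmth, was at 2.27, 2.53 and 1.88 CPM in non-treated jac1 and at 14.4, 12.9 and 9.55 CPM after UV-C, a 5.5-fold increase (log2 FC 2.46 ± 0.31, edgeR adjusted p = 1.10e-05). The lowest treated sample was thus well above the highest non-treated one. IAA19 rose from 1.84, 2.62 and 1.73 CPM to 10.7, 9.46 and 8.47 CPM, again without overlap (log2 FC 2.21 ± 0.16, edgeR adjusted p = 6.07e-08). IAA5 went from 0.290, 0.191 and 0.369 CPM to 1.53, 1.72 and 1.18 CPM (log2 FC 2.37 ± 0.31, edgeR adjusted p = 2.02e-05). Although its fold was large, IAA5 stood on only 7 to 13 reads in each non-treated jac1 library.

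IAA1 in jac1 rose from 6.15, 7.77 and 7.11 CPM to 20.7, 20.8 and 16.6 CPM, a 2.77-fold increase in which no samples overlapped (log2 FC 1.47 ± 0.13, edgeR adjusted p = 4.51e-07). IAA14, whose dominant slr mutant lacks lateral roots, rose from 10.02, 11.9 and 9.52 CPM to 17.3, 18.3 and 20.7 CPM, which passed the test but stayed below the fold threshold (log2 FC 0.84 ± 0.10, edgeR adjusted p = 4.81e-06). IAA17 fell as it did in wild type, from 19.6, 21.5 and 21.5 CPM to 9.40, 9.98 and 12.1 CPM. Its log2 FC of -0.99 ± 0.10 (edgeR adjusted p = 2.47e-06) lay at the threshold. It was a DEG with DESeq2 and with RLE size factors (-1.02 in both), with the likelihood ratio test that the study used (-1.004), with library size only (-1.30), with no filter and with only the samples compared, so that DESeq2 and the likelihood ratio test each gave 5 member DEGs in jac1.

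IAA4 was the other member that fell in jac1, with 106.6, 88.7 and 78.4 CPM before and 68.4, 71.4 and 61.4 CPM after UV-C (log2 FC -0.44 ± 0.12, edgeR adjusted p = 0.00558). IAA2, IAA3 and IAA7 did not pass the test in jac1. IAA2 stood at means of 98.8 and 101.4 CPM and IAA3 at 36.8 and 37.3 CPM in non-treated and treated jac1, and their log2 FC of 0.04 and 0.02 changed sign when libraries were scaled by their size only (-0.27, adjusted p = 0.00658, and -0.30, adjusted p = 0.00354).

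**Figure D2:**
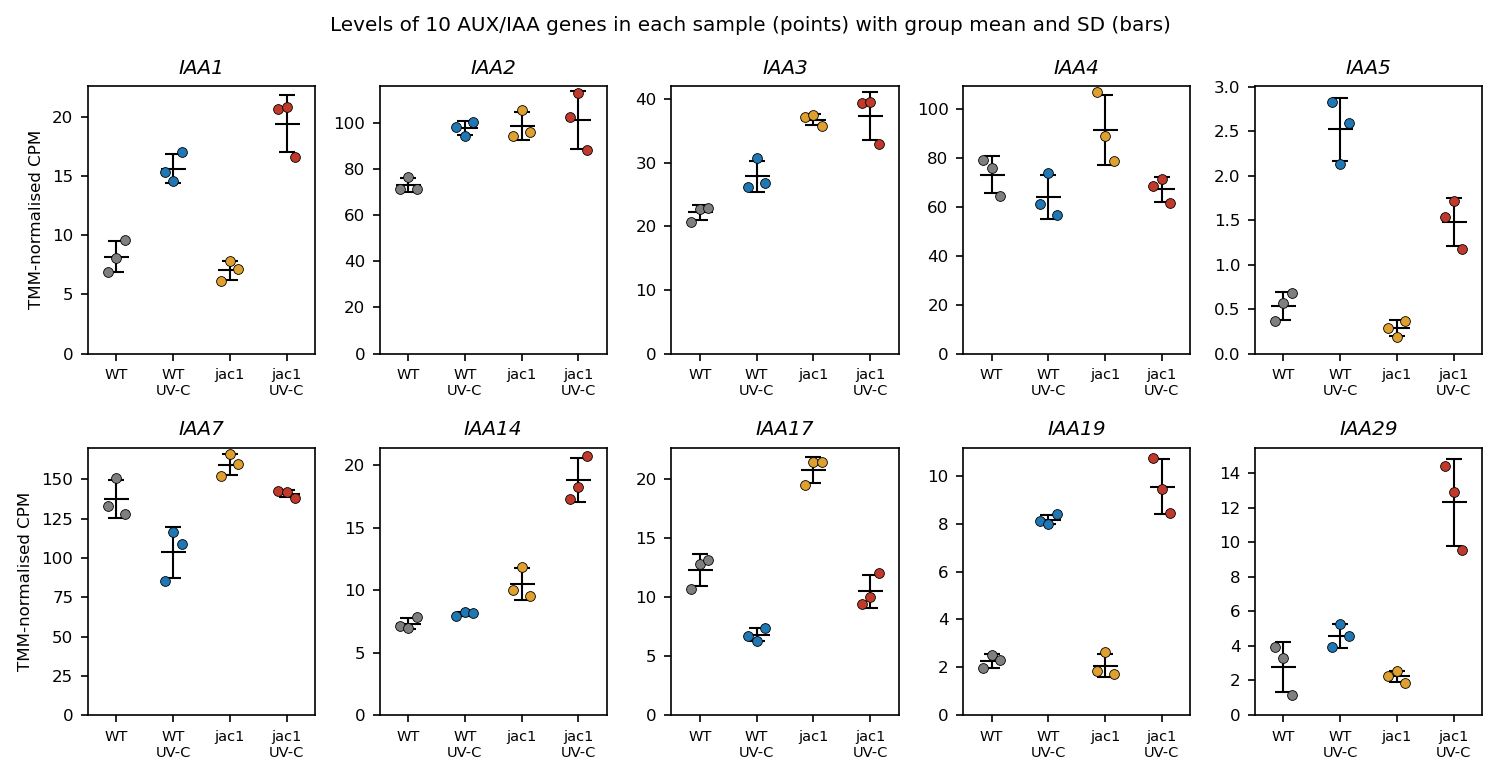
Level of each of the 10 AUX/IAA genes (CPM with TMM scaling, linear axis from 0) in the 12 samples, by group (WT, wild type), with points for samples and black bars for the group mean and SD. IAA1, IAA5 and IAA19 are higher in both UV-C groups than in both non-treated groups, IAA29 stands apart in UV-C treated jac1 (9.55 to 14.4 CPM), and IAA17 is lower after UV-C in both genotypes.

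Next, jac1 was compared with the wild type without treatment. No AUX/IAA gene of the 10 was a DEG in this edgeR comparison, in which 1.95% of all genes were (1.03% higher and 0.915% lower). DESeq2 and the likelihood ratio test of edgeR also called 0, and 7 of the 10 genes had an unadjusted p under 0.05. Of the 10 genes, 4 had an adjusted p under 0.01 at any fold, beside 9.53% of all genes in either direction, and all 4 were higher in jac1. IAA17 showed the largest of these differences, with 10.7 to 13.2 CPM in wild type and 19.6 to 21.5 CPM in jac1 (log2 FC 0.77 ± 0.10, edgeR adjusted p = 0.000109).

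IAA3, the neighbour of IAA17 on chromosome 1, was at 20.7, 22.8 and 23.0 CPM in non-treated wild type and at 37.2, 37.5 and 35.8 CPM in non-treated jac1, groups that were far apart relative to their spread (log2 FC 0.73 ± 0.08, edgeR adjusted p = 2.6e-05). IAA14 was higher by a log2 FC of 0.52 ± 0.10 (edgeR adjusted p = 0.00196) and IAA2 by 0.43 ± 0.08 (edgeR adjusted p = 0.00162), both without overlap of samples. IAA1, IAA4, IAA5, IAA7, IAA19 and IAA29 did not pass the test. IAA5 had 0.284 ± 0.0895 CPM in jac1 and 0.538 ± 0.156 CPM in wild type, with overlapping samples, and the levels of IAA19 (2.06 ± 0.482 and 2.27 ± 0.292 CPM) and IAA29 (2.23 ± 0.332 and 2.80 ± 1.44 CPM) also overlapped.

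After UV-C, 2 of the 10 genes were DEGs between jac1 and wild type, IAA14 and IAA29, both higher in jac1, when 4.21% of all genes were DEGs (2.52% higher and 1.69% lower). In this comparison 5 of the 10 genes had an adjusted p under 0.01 at any fold and all 5 were higher in jac1, beside 28.1% of all genes in either direction. IAA14 was at 7.96, 8.27 and 8.14 CPM in treated wild type and at 17.3, 18.3 and 20.7 CPM in treated jac1, a 2.31-fold difference with little spread on either side (log2 FC 1.21 ± 0.10, edgeR adjusted p = 1.1e-06). With scaling by library size only its log2 FC was 0.95, under the fold threshold, while the median over all genes moved from -0.01 to -0.27 under that scaling.

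IAA29 was at 3.91, 5.29 and 4.55 CPM in treated wild type, below each of the treated jac1 samples given above (log2 FC 1.42 ± 0.30, edgeR adjusted p = 0.0019). Without the first UV-C replicate of the wild type the adjusted p was 0.013, and IAA14 was then the only DEG of the 10. IAA17 (log2 FC 0.63 ± 0.12, edgeR adjusted p = 0.000919), IAA7 (0.45 ± 0.10, adjusted p = 0.0023) and IAA3 (0.41 ± 0.08, adjusted p = 0.00124) were higher in treated jac1 below the fold threshold. IAA19, in contrast to IAA29, was at 9.56 ± 1.14 CPM in treated jac1 and 8.18 ± 0.204 CPM in treated wild type and did not pass (adjusted p = 0.235). IAA5 was at 1.48 ± 0.274 CPM in treated jac1 and 2.52 ± 0.355 CPM in treated wild type, without overlap of samples, and did not pass (log2 FC -0.77 ± 0.26, adjusted p = 0.0271), whereas with scaling by library size only it was a DEG lower in jac1 (log2 FC -1.03, adjusted p = 0.00425).

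Whether the UV-C effect differed between the genotypes was tested directly with the interaction term, the log2 FC in jac1 minus that in wild type. IAA29 was the only DEG of the 10 in this test, with an interaction of 1.77 ± 0.44 (edgeR adjusted p = 0.00974), where 3.88% of all genes passed (2.11% higher and 1.77% lower). In wild type IAA29 had log2 FC 0.69 ± 0.31, which was not past the threshold, and its non-treated samples were at 3.91, 3.31 and 1.17 CPM, of which the highest reached the lowest treated sample. The adjusted p of IAA29 lay close to 0.01. It stayed below that in 2 of the 12 fits that left out 1 library, in which the interaction ranged from 1.42 (without the first non-treated wild-type replicate) to 2.12 (without the third), so that the direction was kept and the call was not.

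IAA14 also had an interaction with an adjusted p under 0.01, at 0.69 ± 0.14 (edgeR adjusted p = 0.00305), below the fold threshold. With IAA29 it made 2 of 10 genes at that FDR, and 13.4% of all genes. Its UV-C effect was a log2 FC of 0.15 ± 0.10 in wild type, which did not pass the test, and 0.84 ± 0.10 in jac1. For IAA1 (0.53 ± 0.18, adjusted p = 0.0475), IAA2 (-0.38 ± 0.11, adjusted p = 0.0235) and the other 6 genes the difference of the UV-C effects did not pass. For IAA5 it was 0.13 ± 0.40 and for IAA19 0.36 ± 0.22, and these standard errors set how large a difference between the genotypes could have been seen.

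**Figure D3:**
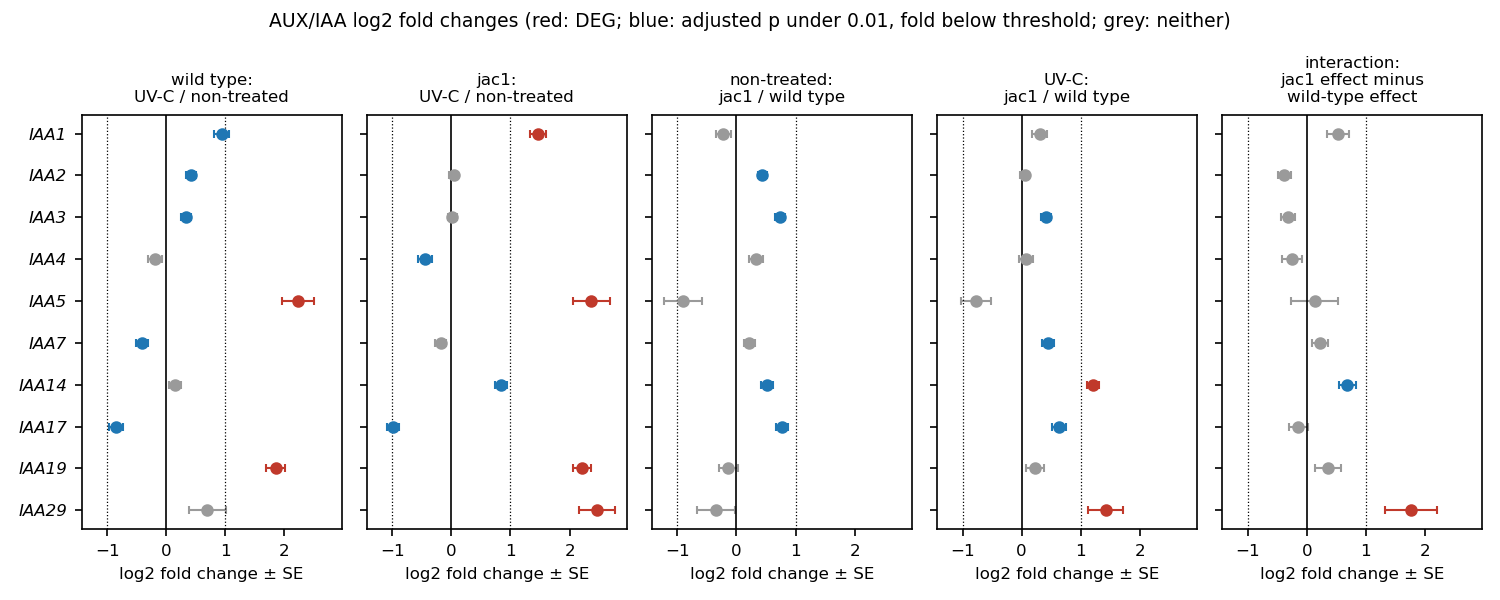
log2 FC (± SE) of the 10 AUX/IAA genes in the 4 comparisons of 3 against 3 samples and in the interaction, with dotted lines at log2 FC -1 and 1. DEGs are red (2, 4, 0, 2 and 1 genes from left to right), genes with an adjusted p under 0.01 below the fold threshold are blue, and the others are grey.

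The genes that moved could also be followed as chromosomal neighbours, since 6 of the 10 form 3 pairs on opposite strands that point away from each other. IAA14 and IAA1 lie 10732 bases apart on chromosome 4 (chr4:8347822-8350263, minus strand, and chr4:8360996-8362033, plus strand), IAA2 and IAA7 12510 bases apart on chromosome 3 (chr3:8180646-8182095, minus, and chr3:8194606-8197161, plus), and IAA3 and IAA17 6388 bases apart on chromosome 1 (chr1:1128149-1129689, minus, and chr1:1136078-1138663, plus). In each pair 0 annotated protein-coding genes lie between the members. After UV-C in wild type IAA2 was higher and IAA7 lower, and IAA3 higher and IAA17 lower, each with an adjusted p under 0.01. In jac1 only IAA17 of these passed, again lower, and IAA2, IAA3 and IAA7 did not (log2 FC 0.04, 0.02 and -0.18). Between the genotypes without treatment IAA3 and IAA17 were both higher in jac1, by log2 FC of 0.73 and 0.77. In the other pairs IAA2 and IAA14 were higher there with an adjusted p under 0.01, and their neighbours IAA7 and IAA1 did not pass. In the pair on chromosome 4, IAA1 rose after UV-C in both genotypes, while IAA14 had an adjusted p under 0.01 in jac1 and not in wild type.

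Reads were counted over exons without the use of strand, although the library kit was stranded. IAA3 overlaps AT1G04230 on the opposite strand by 640 bases and IAA5 overlaps AT1G15570 by 48 bases, so that reads from those stretches cannot be assigned to either gene and the levels of IAA3 and IAA5 are less certain than those of the other 8 genes, which overlap no gene.

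Promoter sequences were read for the 3 genes that were up-regulated by UV-C with an adjusted p under 0.01 in both genotypes (IAA1, IAA5 and IAA19), and for the 2 with an interaction at that FDR (IAA29 and IAA14). TGTCTC and TGTCGG, the letters bound by ARF factors, were searched on both strands in the 250 bases before the annotated start of every gene, together with CACGTG, the G-box recognised by PIF and other factors, which reads the same on both strands. Each line is in the 5′ to 3′ sense of the gene, ends at the base before its start, and has these letters in capitals on either strand (RefSeq, build TAIR10.1). The windows are chr4:8360746-8360995 (plus), chr1:5366498-5366747 (minus), chr3:5263751-5264000 (plus), chr4:15583082-15583331 (plus) and chr4:8350264-8350513 (minus).
IAA1: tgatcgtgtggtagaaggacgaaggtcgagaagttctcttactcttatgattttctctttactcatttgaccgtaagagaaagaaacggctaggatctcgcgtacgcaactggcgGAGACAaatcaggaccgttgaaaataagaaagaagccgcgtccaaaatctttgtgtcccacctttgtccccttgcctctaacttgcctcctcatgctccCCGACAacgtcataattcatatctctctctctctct
IAA5: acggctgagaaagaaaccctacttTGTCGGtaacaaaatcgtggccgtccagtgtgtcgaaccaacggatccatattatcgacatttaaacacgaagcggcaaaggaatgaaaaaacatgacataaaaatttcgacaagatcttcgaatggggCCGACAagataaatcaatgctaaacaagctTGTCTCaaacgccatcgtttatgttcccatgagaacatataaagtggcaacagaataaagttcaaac
IAA19: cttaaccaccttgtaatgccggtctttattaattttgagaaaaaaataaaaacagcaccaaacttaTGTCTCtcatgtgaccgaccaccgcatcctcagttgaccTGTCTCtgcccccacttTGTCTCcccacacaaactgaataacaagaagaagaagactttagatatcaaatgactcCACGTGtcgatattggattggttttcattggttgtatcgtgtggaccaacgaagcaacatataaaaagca
IAA29: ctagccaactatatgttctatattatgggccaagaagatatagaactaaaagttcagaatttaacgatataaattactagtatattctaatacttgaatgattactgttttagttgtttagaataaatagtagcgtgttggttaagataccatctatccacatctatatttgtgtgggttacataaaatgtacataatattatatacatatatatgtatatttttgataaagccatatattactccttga
IAA14: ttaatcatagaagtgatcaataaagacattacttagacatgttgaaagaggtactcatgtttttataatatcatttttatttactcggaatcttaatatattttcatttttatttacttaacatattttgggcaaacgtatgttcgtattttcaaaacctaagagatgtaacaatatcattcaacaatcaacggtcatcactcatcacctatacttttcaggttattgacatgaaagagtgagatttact
TGTCTC or TGTCGG was present in 3 of the 10 windows, those of IAA1, IAA5 and IAA19, and in 14.7% of 27438 gene starts (TGTCTC 11%, TGTCGG 4.16%). In IAA5 the matches began 226, 97 and 67 bases before the start, in IAA19 184, 145 and 128 bases before it, and in IAA1 135 and 36 bases before it. CACGTG was found in IAA19 (70 bases before the start) and IAA7 (22 bases), beside 6.49% of all gene starts. The windows of IAA29 and IAA14 held none of these letters, which says nothing of the factors that act on them. These matches are letters in a window and were not measured as binding sites.

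Among the 19 AUX/IAA genes outside the 10, 15 passed the filter. None was a DEG between treated and non-treated wild type, and DESeq2 also called 0. The medians of log2 FC were 0.24 for the 15 and 0.00 for all genes. With edgeR 3 had an adjusted p under 0.01 and 9 an unadjusted p under 0.05. In jac1 2 were up-regulated after UV-C, beside 8.96% of all genes tested, and the likelihood ratio test called 3 of the 15. IAA6 rose from 0.462 ± 0.0962 to 1.37 ± 0.434 CPM (log2 FC 1.55 ± 0.34, edgeR adjusted p = 0.00133), and IAA30, which belongs to the AUX/IAA genes that lack the degron, from 0.287 ± 0.0888 to 0.70 ± 0.15 CPM (log2 FC 1.25 ± 0.34, adjusted p = 0.00618). IAA30 was not a DEG with DESeq2, nor with scaling by library size only (log2 FC 0.94). IAA28 was the only DEG of the 15 between treated jac1 and treated wild type, and it was lower in jac1, at 6.67 ± 0.532 against 15.6 ± 3.82 CPM (log2 FC -1.22 ± 0.16, edgeR adjusted p = 5.46e-05). Of all genes tested 1.69% were DEGs lower in jac1 in that comparison, and the likelihood ratio test called 2 of the 15.

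No DEG was found among the receptors and partners through which AUX/IAA proteins act, apart from 1 ARF gene. None of the 6 TIR1/AFB receptor genes, 5 genes of the SCF complex and its regulators, and 5 TOPLESS family genes was a DEG in any of the 5 comparisons with edgeR or DESeq2. At an unadjusted p under 0.05 there were 2 to 6 receptor genes, 0 to 4 SCF genes and 0 to 4 TOPLESS family genes per comparison. At any fold, however, 5 of the 6 receptor genes had an adjusted p under 0.01 and were lower after UV-C in wild type (median log2 FC of the 6, -0.48), 1 of the 6 was so in jac1 (median -0.01), and 4 of the 6 had an interaction above 0 at that FDR. The shares of all genes at that FDR, in either direction, were the 34.7%, 48.4% and 13.4% given above. Between the treated genotypes 5 of the 6 receptor genes were higher in jac1 at that FDR (median log2 FC of the 6, 0.45), beside 28.1% of all genes in either direction. After UV-C in jac1, 4 of the 5 SCF genes were higher at that FDR, beside the 48.4%. Of the 15 ARF genes only ARF16, a repressing ARF, was a DEG, in wild type after UV-C (log2 FC -1.01 ± 0.09, adjusted p = 1.36e-06; -0.99 and thus no DEG with RLE size factors; DESeq2 called 0 of 15), and 9 of 15 were lower at that FDR without regard to fold in wild type and 7 of 15 in jac1, the latter close to the 48.4% of all genes in either direction.

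Of 8 genes tested in the list of GH3 enzymes, which conjugate auxin to amino acids, and AT1G14130, 4 were DEGs in wild type and 5 in jac1, all higher (median log2 FC 0.98 and 1.48). Among all genes tested, 7.01% in wild type and 8.96% in jac1 were DEGs higher after UV-C. The largest fitted change was that of GH3.1, for which no fold is given because the non-treated libraries held at most 3 reads each. It stood at 0.0396 ± 0.0273 and 0.929 ± 0.341 CPM in non-treated and treated wild type and at 0.0186 ± 0.0161 and 0.607 ± 0.0287 CPM in jac1. GH3.3, named because it came next in size, rose from 3.70 ± 0.962 to 17.4 ± 6.40 CPM in wild type and from 3.02 ± 1.37 to 17.5 ± 5.73 CPM in jac1.

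The SAUR genes, small auxin-induced genes of which several promote cell expansion, moved in both directions. Of 13 tested, 4 were up- and 3 down-regulated in wild type, and 7 up- and 3 down-regulated in jac1. Of all genes tested, 7.01% were up- and 2.26% down-regulated in wild type, and 8.96% and 4.75% in jac1. SAUR16 showed the largest change in wild type and fell from 28.8 ± 0.382 to 5.59 ± 1.43 CPM (log2 FC -2.35 ± 0.15, edgeR adjusted p = 2.78e-08). SAUR22 showed the largest change in jac1 and rose from 0.360 ± 0.0452 to 6.64 ± 1.31 CPM (log2 FC 4.19 ± 0.31, adjusted p = 7.03e-08). It was also higher in treated jac1 than in treated wild type (log2 FC 1.44 ± 0.26, adjusted p = 0.000553), and with SAUR21 it was 1 of 2 SAUR genes with an interaction (1.88 ± 0.46, adjusted p = 0.00882). SAUR22 belongs to a cluster of near-identical copies between which reads may be split, so its own level is uncertain, and both interactions missed the FDR with RLE size factors (adjusted p = 0.0101 for each).

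**Figure D4:**
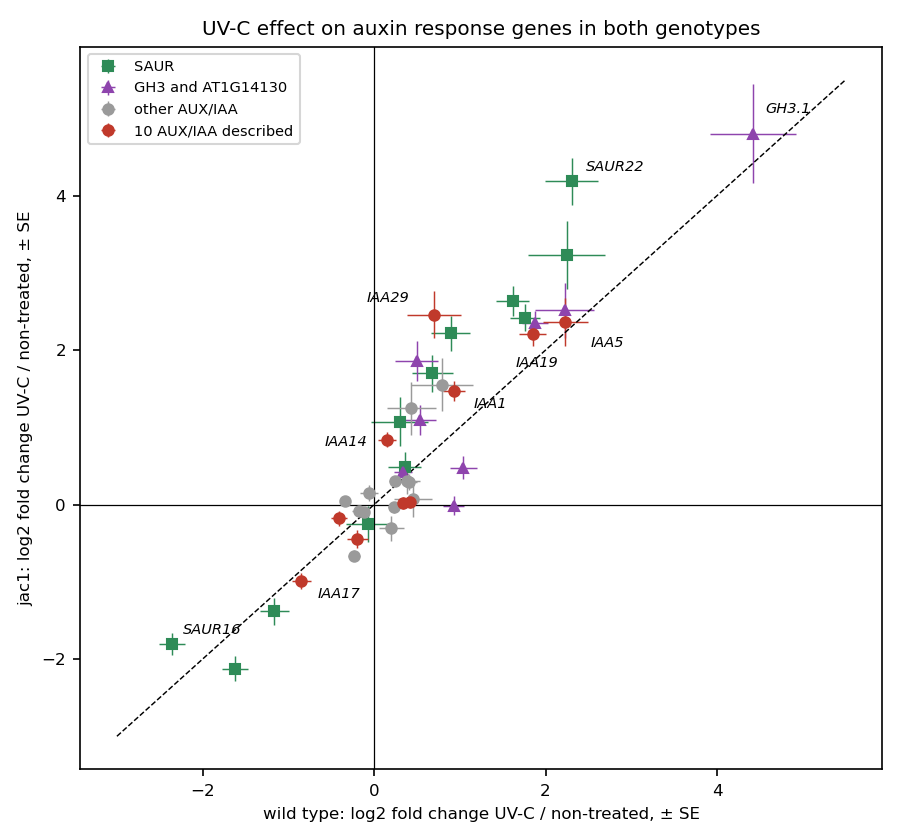
log2 FC (± SE) after UV-C in wild type (horizontal) and in jac1 (vertical) for 43 auxin response genes, with the dashed line where both are equal (3 genes with an SE over 0.7 are left out). IAA5 and IAA19 lie near the dashed line at high values beside GH3 and SAUR genes, IAA29 (0.69 and 2.46) and IAA14 (0.15 and 0.84) lie above it, and the position of GH3.1 rests on at most 3 reads in each non-treated library.

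The DEGs of auxin synthesis and transport after UV-C were mostly lower. Of 9 synthesis genes tested, 2 were down- and 1 up-regulated in wild type and 2 were down-regulated in jac1. The shares of all genes tested were 2.26% down and 7.01% up in wild type, and 4.75% down and 8.96% up in jac1. TAA1, which makes the indole-3-pyruvate precursor of auxin, fell from 23.8 ± 6.53 to 3.75 ± 0.478 CPM in wild type (log2 FC -2.66 ± 0.20, edgeR adjusted p = 1.51e-07). It was the only synthesis DEG between the genotypes without treatment, with 9.48 ± 1.55 CPM in jac1 (log2 FC -1.33 ± 0.17, adjusted p = 0.000118), and the only one with an interaction (1.69 ± 0.29, adjusted p = 0.001). YUC6, a flavin monooxygenase of the next step, had the largest change of the list in jac1 and fell from 4.81 ± 0.490 to 0.750 ± 0.177 CPM (log2 FC -2.68 ± 0.26, adjusted p = 9.19e-07). Of the 12 transport genes only PIN4, an auxin efflux carrier, was a DEG, and it was lower after UV-C in wild type (log2 FC -1.10 ± 0.09, adjusted p = 2.18e-07) and in jac1 (-1.55 ± 0.09, adjusted p = 5.55e-09). Auxin itself was not measured.

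Several light, clock and tissue genes also differed between the groups, not always in the pattern of the AUX/IAA genes, and their part in the AUX/IAA results was not tested. PIF4, a factor known to bind at growth genes including IAA29 and IAA19, was at 6.13 ± 0.383 CPM in non-treated wild type, 23.2 ± 4.75 in treated wild type, 12.6 ± 0.366 in non-treated jac1 and 134.8 ± 0.901 in treated jac1, and it was a DEG in all 5 comparisons (interaction 1.5 ± 0.16, edgeR adjusted p = 1.79e-05). Of the 7 genes of the light and PIF list 4 were DEGs between treated jac1 and treated wild type, all higher, beside 2.52% of all genes. Of 11 clock genes 6 were DEGs between the genotypes without treatment (1.95% of all genes), 3 between the treated genotypes (4.21%), 7 after UV-C in wild type (9.27%) and 7 in jac1 (13.7%), and 6 in the interaction (3.88%). PRR5, a clock component of the evening, was at 13.7 ± 0.631 CPM in non-treated wild type and at 0.928 ± 0.0958 in non-treated jac1.

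Guard cell markers had summed levels of 54.8 to 60.8 CPM in non-treated and 31.8 to 32.9 CPM in treated wild type, and of 60.8 to 70.7 and 28.3 to 32.7 CPM in jac1, with 1 and 2 of the 4 markers down-regulated. Down-regulated shares of all genes tested were 2.26% in wild type and 4.75% in jac1. Floral markers summed to 2.58 to 3.79 CPM in non-treated wild type and 0.540 to 0.750 CPM in non-treated jac1, with 4 of 5 DEGs lower in jac1, and 4 of 5 were DEGs lower in jac1 after UV-C. Of these, AP1 and AP3 held at most 2 reads in each non-treated jac1 library and at most 1 in each treated one, so their folds are uncertain. Among all genes tested, 0.915% without treatment and 1.69% after UV-C were DEGs lower in jac1. The 3 root markers (PLT1, RHD6 and COBL9) had at most 3 reads in every library. The 3 leaf markers summed to 28344.2 to 32289.0 CPM in non-treated wild type and 32738.5 to 34292.3 CPM in non-treated jac1. After UV-C they summed to 27413.3 to 30072.9 and 37040.0 to 42063.9 CPM. Between the treated genotypes 0 of the 3 were DEGs. At any fold 2 were higher in jac1 with an adjusted p under 0.01, beside 28.1% of all genes in either direction. In these bulk samples fewer cells of a type and less RNA per cell cannot be told apart.

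To see which genes of the whole table ran closest to the most variable members, Pearson's r of log2 CPM was taken over the 12 samples for IAA5, IAA29 and IAA19, the 3 members with the widest range of group means. It is a description, since all 12 samples share the treatment and its difference in library composition. IAA5 was closest to GA2OX2, a gibberellin-inactivating oxidase (r = 0.978), GPK1 (0.978) and AT2G45930 (0.977). IAA29 was closest to AT5G60190 (0.978), AT5G05965 (0.973) and IBR10, an enzyme that acts in the conversion of indole-3-butyric acid to auxin (0.964). IAA19 was closest to the chloroplast-encoded rpl20 (0.993), AT1G67856 (0.992) and the chloroplast-encoded ndhH (0.991), genes whose reads also mark the composition of the UV-C libraries. Within the 10 genes, IAA19 was closest to IAA1 (0.977), IAA5 to IAA19 (0.895) and IAA29 to IAA19 (0.818).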

How the data were processed

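Rosette mRNA of 12 samples was sequenced, with 3 per group. Per the study's methods, poly-A RNA libraries (stranded kit) were sequenced, aligned with STAR 2.5.2b to the Araport11 annotation and counted with featureCounts (Subread 1.6.2). The deposited values are raw read counts per gene over exons, which the file header shows were made without a strand option, and the deposited exon length per gene in bases. The start and end of 99.87% of nuclear genes, and of all 10 members, equalled those of RefSeq TAIR10.1.

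From these counts, the 20101 protein-coding genes that reached 5 reads in 3 or more samples were tested in R 4.3.3 with edgeR 4.0.16 (TMM scaling, quasi-likelihood fit of 1 mean per group over 12 samples, Benjamini-Hochberg adjustment over all genes). DEGs had FDR under 0.01 and absolute log2 FC over 1, the study's thresholds. The study used edgeR's likelihood ratio test, which was run as an alternative, as were DESeq2 1.42.0, other scaling factors and filters, glmTreat, an FDR of 0.05, fits of the samples compared only, replicate blocks and each library left out. SE is the absolute log2 FC divided by the square root of F. CPM and RPKM use TMM library sizes, and log2 CPM in the correlations has a pseudocount of 0.1. Replicate libraries of a group differed by more than sampling noise.

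The members and the gene lists were chosen with earlier results of these data known. All 10 members were named in every comparison; of the other auxin lists the DEGs were counted, and the gene with the largest fold in each comparison could be named, as could every DEG of the other AUX/IAA genes. Light, clock and tissue genes were named where their level stands beside a result. Intervals and SEs cover only the spread between these samples.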

Additional observations from a re-analysis of the deposited data

Results flagged for a closer look

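For 2 of the 10 AUX/IAA genes the UV-C effect differed between jac1 and wild type in the interaction test with an edgeR adjusted p under 0.01, as it did for 13.4% of all genes tested. For IAA29 the difference of the log2 fold changes was 1.77 (adjusted p = 0.00974), with a UV-C effect of 0.69 in wild type and 2.46 in jac1. When each library was omitted in turn, IAA29 passed in 2 of 12 cases, and the call was lost with RLE factors (adjusted p = 0.0116). Treated jac1 samples were at 9.55 to 14.4 CPM and those of the other groups at 1.17 to 5.29 CPM, so that the group stood apart in 3 of 3 samples. For IAA14 the difference was 0.69 (adjusted p = 0.00305), with 0.15 in wild type and 0.84 in jac1, and the 3 treated jac1 samples (17.3 to 20.7 CPM) lay above the other 9 samples (6.96 to 11.9 CPM). In the same test 2 of 7 light and PIF genes were DEGs above 0, beside 2.11% of all genes. These were PIF4, at 1.5, and HB-2, at 1.02. HB-2 was no DEG with RLE factors (0.98) or with library size only (0.86), and DESeq2 called 1 of the 7. Of 11 clock genes, 3 were DEGs above 0 and 3 below it, beside 3.88% of all genes in either direction. The part of the light and clock genes in these differences was not tested. No test for a single outlying sample was made, because each group had 3 samples.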

How the results depend on the processing

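IAA1 (jac1), IAA5 and IAA19 (both genotypes) and IAA29 (jac1) were DEGs after UV-C in all 25 alternatives run. Of 1240 values of single genes under an alternative, 1187 kept direction and side of the threshold. Between treated jac1 and wild type the 2 DEGs became 1 with the block by library number and 0 with glmTreat, and 1 to 2 with a library left out. With library size only they were IAA29 and IAA5, the latter lower in jac1 (-1.03, adjusted p = 0.00425), and IAA14 was lost (0.95). The interaction's 1 DEG became 0 with RLE factors, library size only, the block by library number and glmTreat, and 0 to 1 with a library left out. Counts with a library left out were 2 to 3 in wild type, 4 to 5 in jac1 and 0 without treatment.

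The directions that turned were of values that did not pass the FDR with TMM scaling. With library size only, log2 FC was -0.27 (IAA2, adjusted p = 0.00658) and -0.30 (IAA3, adjusted p = 0.00354) after UV-C in jac1, both then past the FDR of 0.01, -0.21 (IAA2), -0.19 (IAA4) and -0.037 (IAA19) between treated genotypes, and -0.029 for the IAA5 interaction. With only the samples compared, IAA2 was at -0.002 and IAA3 at -0.024 in jac1, and IAA3 at -0.010 with DESeq2 and with RLE factors. With a library left out, IAA2 ranged from -0.048 to 0.13 and IAA3 from -0.027 to 0.098 after UV-C in jac1. Between treated genotypes IAA2 ranged from -0.033 to 0.14 and IAA4 from -0.007 to 0.19, and the IAA5 interaction ranged from -0.074 to 0.35. Library size only moved the median over all genes most in jac1, from 0.045 to -0.265, and the share of DEGs that were higher from 75.6% to 62.1%, 65.3% to 37.9%, 52.9% to 40.5%, 59.9% to 23.2% and 54.5% to 36.3% in the order wild type, jac1, non-treated, treated and interaction. It called 1275 genes between treated genotypes where 846 were called. glmTreat called 782, 1147, 67, 142 and 128 genes in the same order, where 1864, 2756, 391, 846 and 780 were called, and the cause was not tested.

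Deviations from the group means of samples with the same replicate number had r from -0.124 to 0.248 by title number and from -0.134 to 0.076 by library number. By title number, r between non-treated wild type and non-treated jac1 was 0.248, 0.077 and 0.152. Samples with different numbers were not compared, so pairing was not tested, and the numbers were not taken to pair the samples. The replicate block by title number left 2, 4, 0, 2 and 1 member DEGs, and the block by library number gave -0.19 for the IAA5 interaction, -0.051 for IAA4 between treated genotypes, 0 interaction DEGs and 191 DEGs of all genes without treatment, where 391 were called. Depth limits IAA5 most, with 7 to 26 reads in each non-treated library.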
